A study of Mus musculus with 9 samples.

Results

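Round spermatids (RS), the haploid germ cells that follow meiosis, were compared after 24 h of culture with 24 mM oxamate or with vehicle (0.15% DMSO). Oxamate resembles pyruvate and inhibits lactate dehydrogenase (LDH). The comparison used 6 of the 9 RS libraries of the series, chosen by their treatment label: vehicle libraries 1, 2 and 3 and oxamate libraries 4, 5 and 6. The other 3 libraries, of RS given 24 mM oxamate and 0.3 mM octyl-L-2HG, entered the filter on low counts, the scaling and the shared estimate of the spread, but not the contrast. The RS were sorted by FACS from the testes of adult mice labelled WT, in which Stra8-iCre had switched on a tdTomato reporter in the germ line, and all groups were cultured in a medium with glutamine, lactate and pyruvate. Each treatment was given in triplicate incubations. Neither the labels nor the paper's methods say whether these came from separate mice or sorts, or whether a vehicle and an oxamate library belong together, so groups were compared unpaired and the p-values measure the spread between these libraries, which may be technical.

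RS build the acrosome and the base of the tail, and they transcribe actively until transition proteins and then protamines replace the histones and close the genome. Many of their mRNAs, those of the protamines among them, are stored for days before they are translated. Germ cells at this stage are known for their use of lactate and pyruvate that Sertoli cells supply, and they carry a testis form of the enzyme, LDHC, beside LDHA.

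The 6 libraries held between 32434700 and 39888396 counted reads, and 25128 genes had at least 10 reads summed over the 9 libraries and were tested. Expression is given below as the normalized count, the number of reads on a gene divided by the size factor of its library, in the order of libraries 1 to 6. Fold changes are oxamate over vehicle on the log2 scale with their standard error (SE), and adjusted p-values come from the quasi-likelihood test of edgeR, adjusted after Benjamini and Hochberg over all genes tested. With oxamate, 1303 genes (5.19% of those tested) changed at an adjusted p under 0.05. Of these 997 were higher (3.97%) and 306 were lower (1.22%). Among the genes with a mean of 100 or more, 8.04% were higher and 1.67% lower. Most changes were small: the median size over the called genes was 0.452 on the log2 scale, and 72 genes rose and 62 fell by at least 1. Without oxamate library 4, 1585 genes (6.31%) were higher and 720 (2.87%) lower. Without vehicle library 2 the counts were 544 and 125, and without vehicle library 3 they were 735 and 197. Oxamate library 4 stood apart: the chi-square of its counts, divided by the degrees of freedom, was 16.7 against oxamate library 5 and 20.7 against oxamate library 6, and 1.98 between libraries 5 and 6. Among the vehicle pairs it was 10.7 for libraries 1 and 2, 10.1 for libraries 1 and 3 and 5.86 for libraries 2 and 3. Vehicle library 1 thus lay further from vehicle libraries 2 and 3 than these did from each other.

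The sorted cells carried the messages of RS. All 15 round spermatid markers were expressed, among them the acrosomal genes Acrv1, Spaca1 and Acrbp, and their summed normalized count was 129482 to 135367 with vehicle and 136282 to 137926 with oxamate. None of the 15 passed the test. The 13 spermatocyte markers summed to 64774 to 69603 and none passed the test, with Stag3, a meiotic cohesin, and Syce1 giving most of that sum. Markers of somatic cells were low. The 8 Sertoli cell markers tested summed to at most 299.1 in any library, with Fshr, Gata4 and Cldn11 below the minimum count. The 6 Leydig cell markers summed to at most 43.5, the 10 peritubular myoid markers to at most 195.1 and the 8 endothelial markers to at most 815.1, and no red blood cell marker reached the minimum. The 7 macrophage markers tested summed to 198.1 to 239.9 with vehicle and 158.1 to 179.8 with oxamate. Among the somatic markers, C1qb of macrophages (normalized counts 47.1, 54.0 and 52.2 against 25.7, 21.2 and 28.5) and Cnn1 of myoid cells (34.7, 41.7 and 56.8 against 23.8, 23.1 and 21.9) were called lower, and Kdr of endothelial cells was called higher, also in 2 of 6 fits that each left out 1 library (leave-one-out fits). C1qa, C1qc and Lyz2 of macrophages stayed below the minimum count. The part of these cells in the results below was not tested. In such bulk samples fewer cells of a type and less RNA per cell cannot be told apart.

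The largest rises among well-expressed genes, those with a mean of 100 or more normalized counts over the 6 libraries, were of genes with varied roles. Beside the potassium channel gene Kcnh2 (log2 fold change 2.06), the raft protein gene Rftn1 (1.44) and the laforin-binding Epm2aip1 (1.23), the 12 largest rises with groups that did not overlap were Chac1 (1.18), the predicted gene Gm9239 (1.08), A130010J15Rik (1.08), Cdca4 (1.08), Slc2a3 (1.06), Zfyve28 (1.05), Nrarp (1.05), Pitpnm2 (1.05) and Slc26a6 (1.01). Slc2a3 encodes GLUT3, a glucose transporter of high affinity, and was by far the most abundant of them. Its normalized counts were 11124, 10489 and 10247 with vehicle and 25495, 20497 and 19988 with oxamate (log2 fold change 1.06, SE 0.08, adjusted p = 4.86e-08). Pitpnm2, which transfers phosphatidylinositol between membranes, had 2406, 2297 and 2631 with vehicle and 5452, 4882 and 4748 with oxamate (1.05, SE 0.07, adjusted p = 1.87e-08). Every oxamate library lay above every vehicle library for both genes, and both kept their call in each of the 6 leave-one-out fits. Cdca4, a gene linked to the cell cycle, went from 312.8, 291.9 and 298.6 to 664.9, 620.8 and 612.8 (1.08, SE 0.09, adjusted p = 1.05e-07).

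The largest falls came from genes of lower expression, and 7 of the 12 had predicted-gene or Rik names. These were Gm16555, Gm30132, 4931431C16Rik, Gm35025, Gm13547, 4933402N03Rik and 4930442G15Rik, and the others were Ddr1, Ssbp2, Tfcp2l1, Cobll1 and Thsd7a. Ddr1 encodes a receptor tyrosine kinase that binds collagen. Its normalized counts were 171.5, 188.6 and 198.7 with vehicle and 84.8, 97.2 and 94.3 with oxamate (log2 fold change −1.01, SE 0.12, adjusted p = 2.72e-05). Ssbp2, which binds single-stranded DNA, had 170.6, 203.8 and 152.0 against 80.0, 85.7 and 96.5 (−1.0, SE 0.13, adjusted p = 8.32e-05). The transcription factor gene Tfcp2l1 had 169.7, 175.3 and 199.6 against 69.5, 113.6 and 120.6 (−0.85, SE 0.16, adjusted p = 0.00173). The groups did not overlap for any of the 3. Gm16555 kept its call in only 3 of the 6 leave-one-out fits, and the other 11 genes in all 6.

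**Figure D1:**
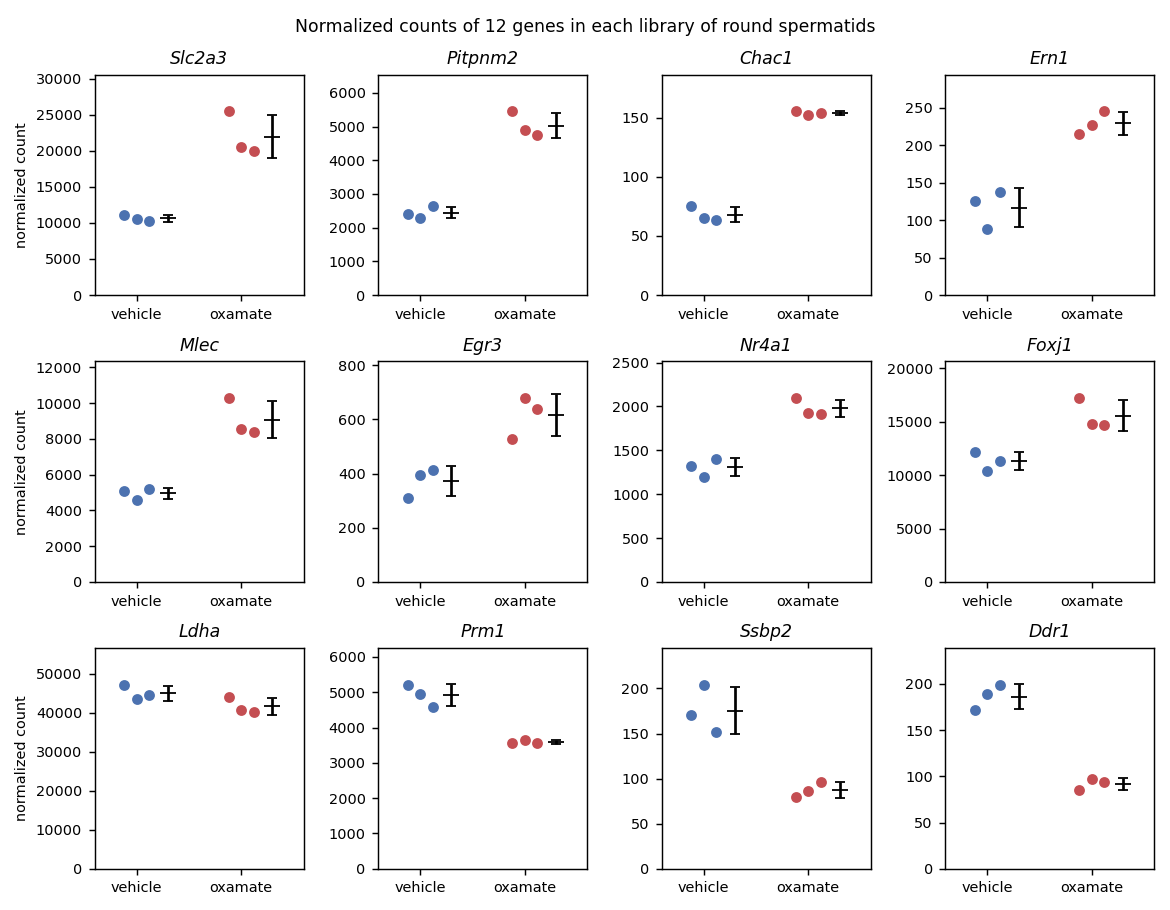
Normalized counts (y axes, each starting at 0) of 12 genes in the 3 vehicle (blue) and 3 oxamate (red) libraries, with the mean and SD in black. The oxamate libraries lie above all vehicle libraries for Slc2a3, Pitpnm2, Chac1, Ern1, Mlec, Egr3, Nr4a1 and Foxj1 and below them for Prm1, Ssbp2 and Ddr1, while the groups overlap for Ldha.

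Genes of protein folding and quality control in the endoplasmic reticulum were among the groups with the highest share of rises. Of 33 such genes tested, 7 were called higher (21.2%, against 3.97% of all genes tested) and none lower, with a median log2 fold change of 0.103 against −0.0113 over all genes. Of the 31 with a mean of at least 100, 22.6% were higher, against 8.04% of all genes of that level. Ern1, the sensor IRE1α of the unfolded protein response, had normalized counts of 125.3, 88.1 and 137.4 with vehicle and 215.3, 227.1 and 245.6 with oxamate (0.97, SE 0.13, adjusted p = 0.000113). Pdia4, a protein disulfide isomerase, had 538.4, 505.1 and 605.3 against 835.5, 953.8 and 980.0 (0.75, SE 0.08, adjusted p = 1.08e-05). The groups stood clear of each other for both. The isomerase gene P4hb rose by 0.53 and the chaperone gene Hyou1 by 0.39. Sel1l and Syvn1, which form the ubiquitin ligase that retrieves misfolded proteins from the endoplasmic reticulum, rose by 0.65 and 0.43, and the mannosidase Edem3, which marks such proteins, by 0.59, although oxamate library 4 overlapped the vehicle range for Edem3. Syvn1 kept its call in only 1 of the 6 leave-one-out fits. The most abundant chaperone of the compartment was not among them: Hspa5 (BiP) had 13861, 13783 and 14220 against 11808, 13492 and 13700 (−0.10, SE 0.06, adjusted p = 0.467), and Xbp1, the transcript that IRE1α splices, had 80.0, 82.5 and 72.3 against 86.7, 77.0 and 92.1 (0.13, SE 0.17, adjusted p = 0.776). With vehicle libraries 1, 2 and 3 and oxamate libraries 4, 5 and 6 left out in turn, the number of higher members was 6, 6, 6, 9, 7 and 6, and with a transcript-length offset it was 6.

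The integrated stress response slows translation and, through the factor ATF4, raises genes of amino acid supply. Of 38 genes of this response tested, 6 were called higher (15.8%) and none lower, with a median of 0.106. Over the 21 members with a mean of at least 100 the median was 0.0468, and it was 0.0128 with the length offset and −0.00922 without oxamate library 4. Chac1, whose enzyme breaks down glutathione, had 75.5, 65.4 and 63.2 with vehicle and 155.3, 152.1 and 153.5 with oxamate (1.18, SE 0.13, adjusted p = 1.08e-05). The transcription factor gene Atf5 had 95.1, 112.8 and 107.1 against 149.6, 187.7 and 159.0 (0.66, SE 0.12, adjusted p = 0.00207). All oxamate libraries lay above all vehicle libraries for both. The other members called were Cars, for cysteinyl-tRNA synthetase (0.42), the stress sensor Sesn2 (0.42), the arginine transporter Slc7a3 (0.66) and the hormone Fgf21 (0.85), the last 2 at mean counts under 100. Sesn2 kept its call in 1 of the 6 leave-one-out fits, and Fgf21 and Slc7a3 in 3 each. Other well-known members did not pass the test. Atf4 itself had 234.6, 248.3 and 237.2 against 270.5, 251.2 and 257.6 (0.12, SE 0.10, adjusted p = 0.595). Ddit3 (CHOP) had a log2 fold change of −0.07 (SE 0.08, adjusted p = 0.725) and Asns, for asparagine synthetase, of −0.08 (SE 0.07, adjusted p = 0.592). The fits that left out libraries 1 to 6 in turn called 4, 3, 4, 6, 5 and 4 members higher, so vehicle library 2 alone reduced the count from 6 to 3. In the plot of list medians, drawn for the members with a mean of at least 100, vehicle and oxamate libraries overlapped for this list. Of the 37 aminoacyl-tRNA synthetase genes tested 4 were higher (10.8%, against 3.97% of all genes tested) and none lower. These were Tars (threonyl, 0.66), Cars2, Vars2 and Cars, and with vehicle library 2 or 3 left out 2 were higher. Ppp1r15b, whose product steers a phosphatase to the initiation factor eIF2α, had 578.4, 500.4 and 490.0 against 743.1, 622.7 and 683.0 (0.39, SE 0.09, adjusted p = 0.0103).

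Immediate early genes, which respond to signals without new protein synthesis, had the highest share of rises of the lists drawn in the plot of members called. Of 27 tested, 6 were called higher (22.2%, against 3.97% of all genes tested) and none lower, with a median of 0.206. Of the 15 with a mean of at least 100, 40% were higher, against 8.04% of all genes of that level. Egr3, a zinc finger transcription factor, had 311.0, 394.3 and 414.9 with vehicle and 527.8, 678.5 and 639.1 with oxamate (0.72, SE 0.11, adjusted p = 0.000216). The orphan nuclear receptor gene Nr4a1 had 1322, 1199 and 1400 against 2095, 1926 and 1914 (0.60, SE 0.08, adjusted p = 4.29e-05). Neither gene's groups overlapped. Dusp1, a phosphatase that switches off MAP kinases, rose by 0.56, Ier5 by 0.59, the Krüppel-like factor gene Klf2 by 0.30 and the antiproliferative Btg1 by 0.27. The classical members Egr1 (115.5, 91.0 and 120.0 against 141.0, 138.6 and 141.4, adjusted p = 0.118) and Jun (42.6, 47.4 and 47.6 against 48.6, 38.5 and 49.3, adjusted p = 0.983) did not pass the test. With libraries 1 to 6 left out in turn the count of higher members was 6, 4, 5, 7, 5 and 6.

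Promoters of 4 called genes are shown, picked because each holds a well-known response element. Each run is the 250 bases before the RefSeq start site on the gene's strand in GRCm38.p6, with the element in capitals. For Chac1 (chr2:119350992-119351241, plus strand) and Fgf21 (chr7:45615491-45615740, minus strand) it is the ATF4-CEBP element TGATGNAA, here as its reverse complement. For Dusp1 (chr17:26508473-26508722, minus strand) it is the cAMP response element TGACGTCA, and for Hmgcs1 (chr13:119690101-119690350, plus strand), a cholesterol synthesis gene described below, the sterol element TCACNCCAC.
Chac1: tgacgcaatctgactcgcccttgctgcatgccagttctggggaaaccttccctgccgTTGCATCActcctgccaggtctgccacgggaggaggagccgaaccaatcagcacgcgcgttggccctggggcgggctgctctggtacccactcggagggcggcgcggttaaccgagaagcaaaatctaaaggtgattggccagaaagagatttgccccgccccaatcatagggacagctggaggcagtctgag
Fgf21: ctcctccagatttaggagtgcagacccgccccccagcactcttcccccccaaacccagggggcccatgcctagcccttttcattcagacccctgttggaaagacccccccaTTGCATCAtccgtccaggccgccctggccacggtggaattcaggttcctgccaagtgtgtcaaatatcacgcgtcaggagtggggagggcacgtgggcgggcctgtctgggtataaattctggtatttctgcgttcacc
Dusp1: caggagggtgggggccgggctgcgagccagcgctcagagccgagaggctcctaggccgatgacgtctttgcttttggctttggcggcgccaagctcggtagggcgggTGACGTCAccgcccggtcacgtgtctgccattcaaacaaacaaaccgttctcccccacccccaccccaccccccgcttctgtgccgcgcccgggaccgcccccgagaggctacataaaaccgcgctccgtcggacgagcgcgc
Hmgcs1: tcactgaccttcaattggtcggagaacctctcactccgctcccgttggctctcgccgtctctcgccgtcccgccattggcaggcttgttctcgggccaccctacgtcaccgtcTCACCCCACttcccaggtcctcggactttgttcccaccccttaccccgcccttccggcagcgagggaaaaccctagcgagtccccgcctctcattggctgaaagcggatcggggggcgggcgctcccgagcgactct
The 8 motifs were searched on both strands of these 250 bases in the promoters of the 15650 tested genes that matched a RefSeq entry by symbol. TGATGNAA lay in 2.93% of the 785 promoters of genes called higher, in 4.33% of the 208 of genes called lower and in 3.26% of all, TGACGTCA in 4.84%, 2.40% and 2.50%, and TCACNCCAC in 1.40%, 0.962% and 1.23%. The box CCAAT lay in 46.0%, 32.7% and 39.1%, the E-box CACGTG in 9.55%, 8.65% and 8.36%, the hypoxia element NACGTG, which every E-box also matches, in 22.9%, 18.8% and 21.7%, the X-box motif GTTGCC in 15.5%, 16.8% and 13.1%, and the heat shock element GAANNTTC in 8.03%, 8.17% and 7.32%. Among genes with a mean of at least 100, TGACGTCA lay in 4.40% of the 704 promoters of genes called higher and in 3.29% of all 8234. In the same order CCAAT lay in 46.4% and 41%, CACGTG in 9.8% and 9.85%, and NACGTG in 23.2% and 24.5%. For GTTGCC it was 15.8% and 14.5%, and for GAANNTTC 8.52% and 7.01%. TGATGNAA lay in 2.7% and 2.91%, and TCACNCCAC in 1.14% and 1.13%. These shares are descriptions of letters in a window. Of the 6 stress response genes called, Atf5 and Sesn2 have an entry without TGATGNAA, and Slc7a3 and Cars have no entry in the table. Of the other immediate early genes called, Nr4a1, Btg1, Klf2 and Ier5 have an entry without TGACGTCA and Egr3 has none, and of the other cholesterol genes called, Srebf2, Nsdhl and Lss have one without TCACNCCAC.

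The genes of the enzymes that oxamate inhibits did not pass the test. Ldhc had normalized counts of 178968, 155403 and 161835 with vehicle and 171997, 147430 and 141169 with oxamate (−0.10, SE 0.07, adjusted p = 0.528). Ldha had 47148, 43536 and 44466 against 44195, 40702 and 40123 (−0.11, SE 0.06, adjusted p = 0.392), and Ldhb stayed below 6 in every library. The groups overlapped for all 3. None of the 10 LDH and lactate transporter genes tested passed the test, though 1 was called lower without oxamate library 4, and the monocarboxylate transporter gene Slc16a7 (MCT2) had 30319, 32647 and 32004 against 26938, 31469 and 31135. Of 31 glycolytic genes 1 was called, Pgam1 (158.2, 145.0 and 157.5 against 263.9, 186.7 and 177.6, log2 fold change 0.46), and it kept its call in 2 of the 6 leave-one-out fits. Of 33 genes of pyruvate entry and the citric acid cycle 1 was called. This was Pdp1, the phosphatase that activates pyruvate dehydrogenase, with 2017, 2011 and 2127 against 2718, 3061 and 3085 (0.53, SE 0.07, adjusted p = 7.88e-05). The groups were well apart, and Pdp1 kept its call in all 6 leave-one-out fits. In the fit without oxamate library 4, 3 of these 33 genes (9.09%, against 2.87% of all genes) and 2 of the 31 glycolytic genes (6.45%) were called lower. Among 38 genes of the AMPK and mTOR pathway, which sense energy and amino acids, 3 were higher (7.89% against 3.97% of all genes, and 10.7% against 8.04% at a mean of at least 100): Rragc, a GTPase that recruits mTORC1 to the lysosome (538.4, 543.1 and 533.0 against 857.4, 847.9 and 798.1, 0.64, SE 0.08, adjusted p = 2.25e-05), the folliculin partner Fnip1 (0.48) and Sesn2.

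Of 28 genes of cholesterol synthesis and its factor SREBP2 4 were called higher (14.3%) and none lower: Nsdhl (0.42), Srebf2, which encodes SREBP2 (0.39), Lss (0.37) and Hmgcs1 (0.26). Srebf2 had 1295, 1144 and 1254 against 1735, 1625 and 1458 (SE 0.08, adjusted p = 0.00361). The median over the 28 was 0.00828. Over the 13 with a mean of at least 100 it was 0.129, and 0.0693 with the length offset. Of these 13, 30.8% were higher, against 8.04% of all genes of that level. The fits without libraries 1 to 6 called 1, 1, 1, 4, 2 and 1 members, and a transcript-length offset 1. Among 34 fatty acid genes 1 was called, Acacb, at a mean count under 100.

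Nuclear genes of the respiratory chain and of ribosomes had medians below 0, with few calls. None of the 85 respiratory chain and ATP synthase genes tested was called in either direction, with a median of −0.121. Without oxamate library 4, 27 of the 85 (31.8%) were called lower, against 2.87% of all genes in that fit. With any other single library left out, or with a transcript-length offset, none was called lower. Of 87 cytosolic ribosomal protein genes 2 were called lower, Rps27a (−0.30) and Rps7 (−0.26), with a median of −0.118. Without oxamate library 4, 28 (32.2%) were called lower and without vehicle library 3, 4 were, while without vehicle library 1 or 2 or oxamate library 5 none was. Of 77 mitochondrial ribosomal protein genes none was called, against 11 lower without oxamate library 4 and none lower without any other single library. Relative to the vehicle mean, the median over the cytosolic ribosomal genes was 0.122, −0.0352 and −0.0871 in vehicle libraries 1, 2 and 3 and −0.0214, −0.166 and −0.231 in oxamate libraries 4, 5 and 6. For the respiratory chain it was 0.106, −0.0494 and −0.0661 against −0.0197, −0.168 and −0.190. Oxamate library 4 lay inside the vehicle range for both lists. Taken in the order of their numbers, 4 less 1, 5 less 2 and 6 less 3, the medians differed by −0.143, −0.131 and −0.144 for the cytosolic ribosomal genes, by −0.126, −0.119 and −0.123 for the respiratory chain and by −0.0989, −0.103 and −0.0928 for the mitochondrial ribosomal genes. No label says that libraries in this order belong together, and no pairing was fitted. These are short transcripts, with a median length of 937 and 918 nucleotides over the members with a mean of at least 100. The median log2 fold changes of those members were −0.129 and −0.122, and −0.0589 and −0.0531 with a transcript-length offset. The part of library 4 and of length in these shifts was not tested. The 11 mitochondrially encoded mRNAs and the 37 proteasome genes held no call, and without oxamate library 4, 1 of the former was higher and 2 of the latter (5.41%) were lower.

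**Figure D2:**
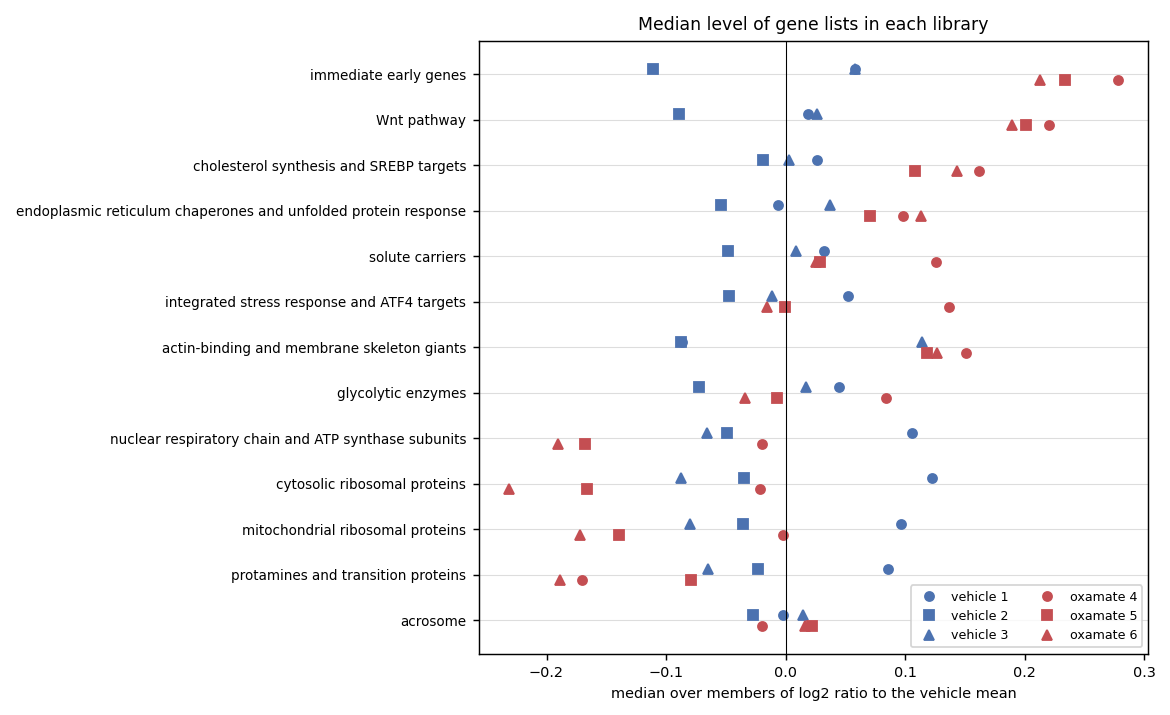
Median over the members of 13 gene lists with a mean of 100 or more normalized counts of the log2 ratio to the vehicle mean (x axis), for each vehicle (blue) and oxamate (red) library. Immediate early, Wnt and cholesterol genes lie higher in all 3 oxamate libraries, while for the respiratory chain and both ribosome lists oxamate library 4 falls among the vehicle libraries.

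Membrane transport genes were described by class. Of 324 solute carriers tested 22 were higher (6.79%, against 3.97% of all genes tested) and 3 lower (0.926%, against 1.22%). After Slc2a3, the largest rises among those with a mean of at least 100 were Slc26a6, an exchanger of chloride, bicarbonate and oxalate (70.2, 85.3 and 74.2 against 140.0, 162.7 and 160.1, log2 fold change 1.01, SE 0.13, adjusted p = 5.69e-05), Slc1a5, a glutamine transporter (0.55), and Slc39a3, a zinc importer (0.55). Slc6a6, a taurine transporter, rose by 0.36. The groups did not overlap for any of these. Slc39a3 kept its call in only 4 of the 6 leave-one-out fits, with log2 fold changes of 0.32 to 0.69. Without vehicle library 2 the list held 12 higher genes and with each of the other libraries left out 18 to 25. Lower solute carriers numbered 2, 0, 1, 6, 1 and 2 without libraries 1 to 6. Of 70 potassium channel genes 6 were higher (8.57%) and none lower. Beside Kcnh2, these included the voltage-gated channel gene Kcnq3 (166.1, 164.0 and 195.1 against 245.8, 260.8 and 251.0, 0.53, adjusted p = 0.00213), whose groups did not overlap, and Kcnj6 (0.40), and every fit that left out 1 library kept at least 5 higher calls. Among 118 calcium, sodium, chloride and TRP channel genes and calcium pumps 7 were higher (5.93%, against 3.97% of all genes) and none lower, among them Cacng8 (0.70), the lysosomal calcium channel gene Tpcn2 (0.51), Orai2 (0.43), Cacna1h (0.35) and Atp2b4 (0.34), the last a plasma membrane calcium pump of sperm. Without vehicle library 2 this count was 3, and with the length offset it was 4.

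Sugar-modifying enzymes of the secretory pathway were higher in part. Of 127 tested 10 were called higher (7.87%) and none lower, with a median of 0.0782. Galnt10, which starts O-linked chains, had 1492, 1281 and 1494 against 3138, 2312 and 2319 (0.87, SE 0.10, adjusted p = 1.21e-05). Pofut2, which adds fucose to thrombospondin repeats, had 1849, 1541 and 1854 against 2931, 2538 and 2644 (0.63, SE 0.08, adjusted p = 3.44e-05), and the heparan sulfate enzymes Hs2st1 and Ext1 rose by 0.62 and 0.40. The groups did not overlap for these genes. The fits without libraries 1 to 6 called 7, 6, 10, 13, 9 and 7. Of genes outside the list, Mlec, a lectin of the endoplasmic reticulum that binds glycans on new proteins, had 5085, 4593 and 5184 against 10274, 8558 and 8387 (0.88, SE 0.08, adjusted p = 3.36e-07), and Dpy19l1, of a family of tryptophan mannosyltransferases, had 2315, 2177 and 2504 against 4343, 4586 and 4492 (0.94, SE 0.07, adjusted p = 1.87e-08). Of 157 genes of membrane traffic (Rab, Arf, VPS and sorting nexins) 7 were higher (4.46%), near the share over all genes. The largest were Tbc1d2, a Rab-inactivating protein (906.3, 866.2 and 983.6 against 1687, 1601 and 1499, 0.80, SE 0.08, adjusted p = 8.81e-07), the early endosome GTPase Rab5a (0.66) and Arf6 (0.48), and the count was 4 without vehicle library 2 and 11 without oxamate library 4.

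In the Wnt pathway 9 of 64 genes were higher (14.1%) and none lower, with a median of 0.156. The co-receptor gene Lrp5 had 10401, 9109 and 11079 against 14449, 13322 and 12886 (0.42, SE 0.07, adjusted p = 0.0012), and the other called genes included Pygo2 (0.54), Dvl2 (0.50), the kinase Gsk3a (0.50), Dvl1 (0.30) and the nuclear effector Lef1 (0.30). The target gene Axin2 had 6.22, 13.3 and 9.16 against 16.2, 15.4 and 12.1 and did not pass the test (adjusted p = 0.364). Leaving out libraries 1 to 6 in turn gave 6, 3, 7, 9, 6 and 8 higher members, and the length offset 6. In the Hippo pathway, which restrains the coactivator YAP, 6 of 33 genes were higher (18.2%) and 2 lower (6.06%). Yap1 itself had 1692, 1512 and 1615 against 2270, 2238 and 2210 (0.48, SE 0.07, adjusted p = 0.000158) and Amotl1, which holds YAP in the cytoplasm, 5940, 5710 and 6623 against 8358, 8440 and 8405 (0.47, SE 0.07, adjusted p = 0.00015). The groups were separate for both, and the kinases Stk4 (0.31), Taok2 (0.39) and Lats1 (0.28) were called too. Tead2, a DNA-binding partner of YAP, fell by 0.59 (104.0, 127.9 and 141.9 against 70.5, 89.5 and 87.7). With libraries 1 to 6 left out in turn 4, 2, 5, 9, 4 and 6 Hippo genes were higher and 2, 0, 0, 2, 2 and 2 lower, and with the length offset 2 were higher and 2 lower. In the Notch pathway 4 of 32 genes were higher (12.5%, against 3.97% of all genes tested) and 1 lower (3.12%, against 1.22%). The higher ones included the coactivator gene Maml1 (342.1, 273.9 and 314.1 against 563.0, 507.2 and 495.5, 0.76, SE 0.09, adjusted p = 3.58e-05), and the ligand gene Jag1 was lower (184.8, 190.5 and 197.8 against 128.6, 144.4 and 139.2, −0.47, SE 0.11, adjusted p = 0.0144). The other 3 higher genes were Dtx4 (0.67), Dtx1 (0.44) and Spen (0.27). Without vehicle library 1 or 2 only 1 Notch gene was higher, and with the length offset 2 were. Jag1 was not called without vehicle library 2 or vehicle library 3, at −0.47 and −0.46. The Notch feedback gene Nrarp, among the 12 largest rises, had 91.5, 71.1 and 64.1 against 150.5, 149.2 and 169.9, while the target gene Hes1 had 10.7, 13.3 and 15.6 against 10.5, 20.2 and 16.4.

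Of 78 genes of receptor tyrosine kinases, ephrins and insulin signalling 3 were higher (3.85%) and 2 lower (2.56%), beside 3.97% and 1.22% of all genes tested. Without vehicle library 2 and with the length offset no member was higher, and without vehicle library 3 or either of oxamate libraries 5 and 6 there was 1. The higher ones were Kdr (0.46), Epha10 (0.38) and Insr (0.29), and the lower ones were Ddr1 (−1.01) and Met (−3.93), a growth factor receptor with few counts. Of 124 G-protein coupled receptors 3 were higher (2.42%) and 2 lower (1.61%), and of 397 olfactory and vomeronasal receptors 3 were higher (0.756%) and 1 lower (0.252%). Leaving out libraries 1 to 6 in turn gave 2, 3, 5, 6, 2 and 3 higher coupled receptors and 2, 1, 2, 9, 1 and 3 higher olfactory and vomeronasal receptors. Among second messenger genes, 6 of 60 genes of cyclic nucleotide signalling were higher (10%) and 1 lower. Akap11, which anchors protein kinase A, rose by 0.77 (542.0, 667.2 and 650.2 against 918.3, 1076 and 1161), Adcy3, an adenylyl cyclase, by 0.59 and the phosphodiesterase gene Pde4a, abundant in RS, by 0.47 (6664, 6149 and 7276 against 9732, 8968 and 9010, adjusted p = 0.000224). Protein phosphatase genes whose symbols begin with Ppp held 10 rises among 84 (11.9%) and no fall. The calcineurin subunits Ppp3r1 (219.5, 224.6 and 270.2 against 284.8, 369.6 and 344.2, 0.49) and Ppp3cb (458.5, 543.1 and 504.6 against 581.1, 667.9 and 672.0, 0.35) were among them, and with the length offset 4 of the 84 were higher.

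**Figure D3:**
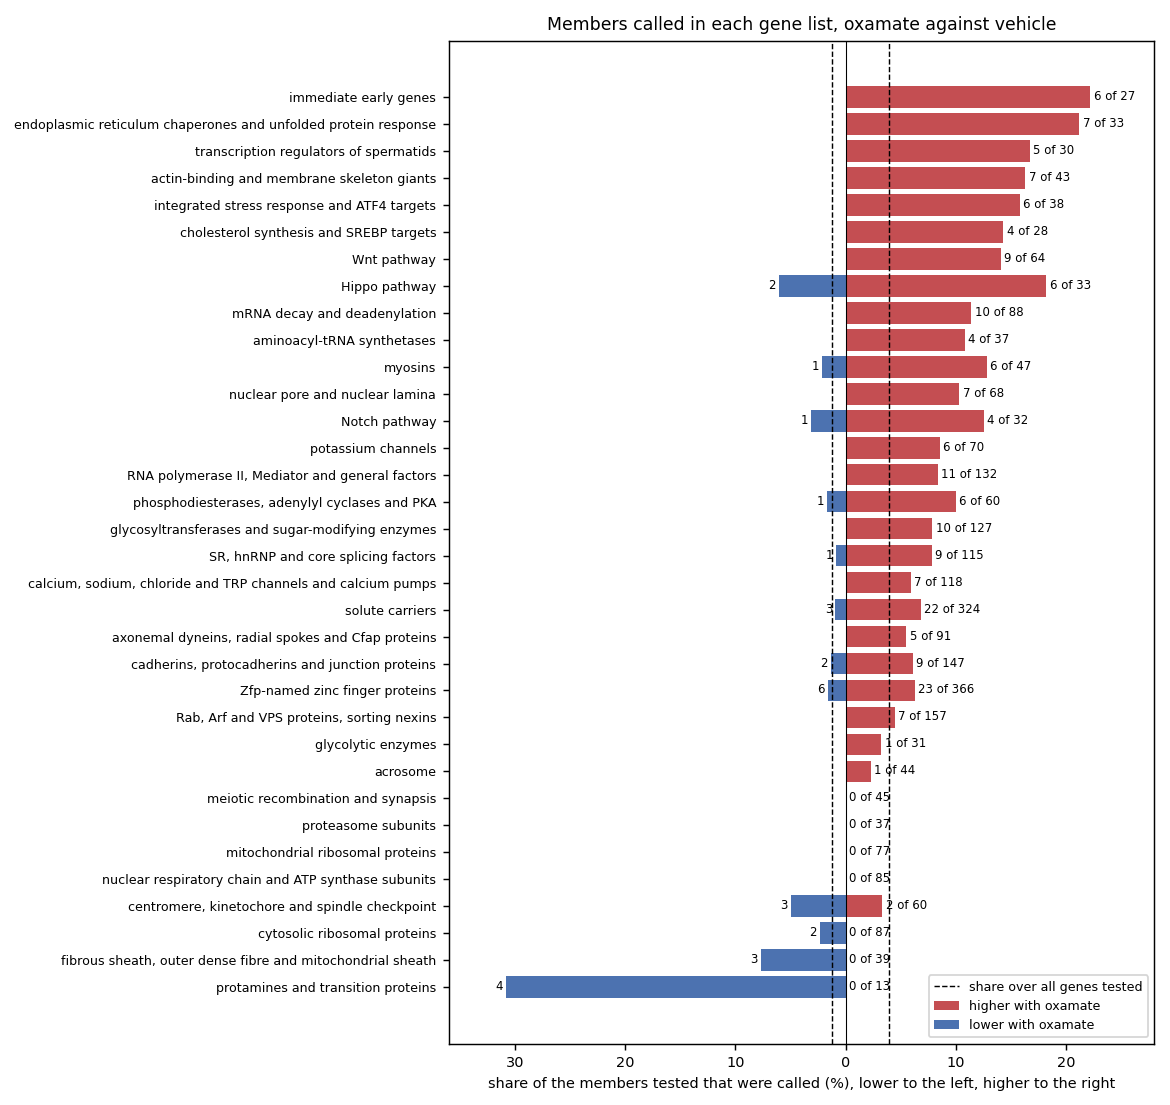
Share of the tested members of 34 gene lists called higher (red, to the right) or lower (blue, to the left) with oxamate, in percent, with the numbers beside the bars and dashed lines at 3.97% and 1.22%, the shares over all genes tested. Immediate early and endoplasmic reticulum genes head the rises, and protamines and transition proteins the falls.

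Genes that make and process mRNA were counted by list. Of 132 genes of RNA polymerase II, the Mediator complex and general factors 11 were higher (8.33%) and none lower, and of those with a mean of at least 100 it was 9.82%, against 8.04% of all genes of that level. The Mediator subunit gene Med26 had 4592, 4276 and 4444 against 8285, 6217 and 6071 (0.63, SE 0.09, adjusted p = 0.000156) and the largest polymerase subunit gene Polr2a 4160, 3911 and 4711 against 5962, 5697 and 5959 (0.47, SE 0.08, adjusted p = 0.000641), with separate groups for both. Rtf1, of the elongation complex PAF1, rose by 0.58, Taf2 of TFIID by 0.51 and Med1 by 0.39. Leaving out libraries 1 to 6 in turn gave 8, 5, 8, 19, 7 and 7 higher. Of 115 splicing genes 9 were higher (7.83%), led by the spliceosome scaffold Srrm2 (4449, 4644 and 5415 against 7387, 6918 and 7324, 0.58, SE 0.07, adjusted p = 2.72e-05), and Rbm47 was lower. At that mean the share of higher splicing genes was 9.09%. The counts of higher members without libraries 1 to 6 were 7, 5, 7, 16, 7 and 7. Of 88 genes of mRNA decay 10 were higher (11.4%, and 14.7% at that mean) and none lower, among them Smg1, the kinase of nonsense-mediated decay (0.56), Zfp36l1, which binds AU-rich elements (0.48), and Pum2 (0.47). The corresponding counts were 6, 4, 7, 17, 6 and 8, and 6 with the length offset. Of 68 genes of the nuclear pore and lamina 7 were higher (11.5% at that mean) and none lower, with the largest rises in Pom121 and Nup210. Pom121, which anchors the pore in the membrane, had 2311, 2177 and 2532 against 4282, 3979 and 3863 (0.79, SE 0.07, adjusted p = 8.13e-07) and Nup210, a pore membrane glycoprotein, 166.1, 151.6 and 188.7 against 297.2, 282.0 and 280.6 (0.77, SE 0.10, adjusted p = 7.58e-05). Both genes were called in every fit that left out 1 library, while the list held 5, 2, 3, 11, 3 and 6 higher members in those fits and 3 with the length offset.

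Transcription factors of the spermatid programme were higher for 5 of 30 genes (16.7%, against 3.97% of all genes tested) and lower for none. Foxj1, which drives genes of motile cilia, had 12201, 10430 and 11353 against 17216, 14840 and 14668 (0.46, SE 0.08, adjusted p = 0.000641), with separate groups. Rfx7 (0.32) and Rfx1 (0.28), of the family of regulatory factor X, and Hsf5 (0.43) and Mybl1 (0.30), a meiotic factor, were called as well. The fit without oxamate library 4 called 6 members and each of the other fits without 1 library 3, and with the length offset 2 were higher and 1 lower. Crem, a master factor of RS, had 13297, 14010 and 12724 against 11737, 12830 and 13063 and did not pass the test. Zinc finger genes named Zfp split 23 higher (6.28%) and 6 lower (1.64%) of 366, with Zfp768 and Zfp609 (0.52 each) the largest rises of those with a mean of at least 100 and Zfp958 (−0.53) the largest fall. Of those with that mean 10.2% were higher and 1.61% lower, near the 8.04% and 1.67% of all genes of that level. With libraries 1 to 6 left out in turn the Zfp genes held 14, 11, 14, 32, 15 and 14 higher and 6, 0, 2, 4, 2 and 6 lower. For reference, 39 of 216 genes of histone-modifying enzymes and remodellers were higher and none lower, a share of 18.1%. Without vehicle library 2 there were 19 higher, and with the length offset 25 higher and 4 lower.

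Among cytoskeletal and adhesion genes the share of rises differed between lists, beside 3.97% higher and 1.22% lower over all genes tested. Of 43 large actin-binding and membrane skeleton genes 7 were higher (16.3%), among them filamin A, Flna (437.1, 429.3 and 520.2 against 670.7, 646.8 and 652.3, 0.51, SE 0.09, adjusted p = 0.000746), the spectrin gene Sptbn1 (0.49) and Add1 (0.55). The fits without 1 library called 5 to 9 higher, and the length offset 5 higher and 1 lower. These transcripts are long. At a mean of at least 100 the share was 19.2%, beside 15.1% in the longest of the length classes described below. Of 47 myosin genes 6 were higher (12.8%) and 1 lower, with Myo9b (0.51) and the minus-end motor Myo6 (0.43) the largest rises of those with a mean of at least 100. With the length offset 4 myosin genes were higher and 1 lower. Vehicle libraries 1 and 2 lay below vehicle library 3 in the median of the membrane skeleton genes (−0.0867, −0.0871 and 0.114), close to the oxamate range of 0.118 to 0.151. Of 147 cadherin, protocadherin and junction genes 9 were higher (6.12%) and 2 lower, with Celsr3 (0.88) and Celsr2 (0.62), receptors of planar cell polarity, the largest rises of that level. With libraries 1 to 6 left out in turn that list held 6, 6, 8, 13, 5 and 7 higher members, and without vehicle library 3 none lower. Near the share over all genes were collagens, laminins, integrins and matrix (5 of 143 higher, 3.5%) and kinesins and cytoplasmic dynein (4 of 83, 4.82%).

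Prm1, Prm2, Tnp1 and Tnp2, whose products replace the histones, were lower. Of 13 protamine and transition protein genes 4 were called lower (30.8%, against 1.22% of all genes) and none higher, and these were the 4 that give the list its name. Prm1 had normalized counts of 5203, 4960 and 4583 with vehicle and 3551, 3647 and 3575 with oxamate (−0.45, SE 0.07, adjusted p = 0.000224). Prm2 had 6933, 6513 and 6253 against 4968, 5123 and 5000 (−0.38, SE 0.06, adjusted p = 0.000746). Tnp2 had 8765, 8025 and 7672 against 6291, 6662 and 6581 (−0.32, SE 0.07, adjusted p = 0.00607). All oxamate libraries lay below all vehicle libraries for these 3 and for Tnp1, which had 7334, 6922 and 6481 against 5442, 5971 and 5800 (−0.26, SE 0.07, adjusted p = 0.0192). Each of the fits without 1 library called 3 or 4 of them. Their transcripts are short, and with the length offset Prm1 (−0.32, adjusted p = 0.00296) and Prm2 (−0.28, adjusted p = 0.00569) were still called while Tnp1 and Tnp2 were not. The list named for the fibrous sheath, outer dense fibres and mitochondrial sheath held 39 tested genes, not all of them structural parts of these. Of these genes 3 were lower (7.69%), Fscn3 (−0.35), Glul (−0.32) and Spem1 (−0.30), and none higher. Most of that list showed no call: Akap4, Odf1, Smcp, Oaz3 and Gapdhs lay between −0.09 and 0.02. The summed count of the 13 elongating spermatid markers was 155786 to 157595 with vehicle and 143845 to 150761 with oxamate. This sum holds Prm1, Prm2, Tnp1, Tnp2 and Spem1, the 5 of the 13 called lower, and is no separate evidence.

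Genes of the acrosome and of meiosis held few calls. Of 44 acrosomal genes 1 was higher, Tmem95 (0.31), and of 45 genes of meiotic recombination and synapsis and 10 testis-specific serine kinases none passed the test. In the fit without oxamate library 4 the acrosomal list held 3 higher and 2 lower, the meiotic list 3 and 1, and the kinases none and 1. Among 91 genes of the axoneme, dyneins, radial spokes and Cfap proteins, 5 were higher (5.49%) and none lower, Dnah10 (9918, 9196 and 11654 against 14174, 12607 and 13000, 0.38, SE 0.08, adjusted p = 0.00368), Dnah3, Dnaaf8, Cfap91 and Odad2. At a mean of at least 100 the share was 5.68%, below the 8.04% of all genes of that level. Leaving out libraries 1 to 6 in turn gave 2, 1, 4, 9, 2 and 3, and the length offset 2. In the centromere, kinetochore and spindle checkpoint list 2 of 60 genes were higher (3.33%, against 3.97% of all genes), Cenpi (0.37) and Zw10 (0.25), and 3 lower (5%, against 1.22%): the cohesin protector Sgo2a (782.8, 1039 and 886.5 against 648.7, 700.7 and 737.8, −0.37, SE 0.09, adjusted p = 0.0177) and the kinetochore subunits Ndc80 (−0.36) and Spc25 (−0.34). Lower calls in this list numbered 2, 0, 3, 9, 1 and 2 without libraries 1 to 6. Of 73 DNA repair genes the strand exchange factor Xrcc2 was lower (159.0, 183.9 and 184.1 against 95.3, 133.8 and 102.0, −0.66, SE 0.13, adjusted p = 0.00369), in each fit without 1 library too, and Dclre1b (0.38), Trp53bp1 (0.28) and Recql5 (0.26) were higher. These 3 are 4.11% of the list, near the share over all genes, and 5.36% of its members with a mean of at least 100, below that of all genes of that level. This list held 10 higher and 3 lower without oxamate library 4, no higher gene without vehicle library 2, and no higher and 3 lower with the length offset.

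Calls were also counted by gene class. Of 16689 protein-coding genes tested 922 were higher (5.52%) and 160 lower (0.959%). Of 5112 long noncoding genes 41 were higher (0.802%) and 121 lower (2.37%), with a median of −0.114 against 0.0108 for coding genes. Among the genes with a mean of at least 100, 24 of 1221 long noncoding genes were higher (1.97%) and 66 lower (5.41%), against 822 (8.94%) and 106 (1.15%) of 9191 coding genes. Without oxamate library 4 the long noncoding calls of that level were 58 and 95, and with the length offset 27 and 39. Without that library 1385 coding genes of any level were higher and 539 lower. Of the 854 genes of the X chromosome, which stays largely silent in RS, 23 were higher (2.69%) and none lower, against 973 (4.07%) and 303 (1.27%) of 23925 autosomal genes. The X-linked calls were 49 and 1 without oxamate library 4. Of 237 Y-linked genes 2 were lower. Among 124 families of at least 15 genes that share the letters of their symbol, 66 held higher calls only, 5 lower calls only, 24 both and 29 none. Families with a share above the 3.97% of all genes tested included the Rab exchange factors named Dennd (4 of 15 higher), the Krüppel-like factors named Klf (4 of 17) and the Stk-named genes (4 of 23). With the length offset each of these held 3 higher. Of the Klf calls, Klf15 and Klf16 had mean counts of 18.5 and 73.2. Other families lay below 3.97%, such as those named Ccdc (2 of 132, 1.52%) and Wdr (2 of 62, 3.23%).

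Rises were concentrated in long transcripts. The genes with a mean of at least 100 were split into 5 equal classes by transcript length, and 31 of the 2146 in the shortest class were higher (1.44%) and 72 lower (3.36%), while in the longest class 323 of 2145 were higher (15.1%) and 23 lower (1.07%). Without oxamate library 4, 64 genes of the shortest class were higher and 268 lower, and 517 and 31 of the longest. The median log2 fold change went from −0.077 in the shortest class to 0.0849 in the longest. With a length offset fitted in each library, 49 genes of the shortest class were higher and 24 lower, 177 of the longest were higher and 63 lower, and 734 genes (2.92%) were higher and 322 (1.28%) lower over all genes. By expression, 4 of 5026 genes in the lowest of 5 equal classes were higher and 1 lower, against 437 (8.69%) and 31 (0.617%) of the highest. The part of transcript length in the changes of single genes was not tested beyond this offset.

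**Figure D4:**
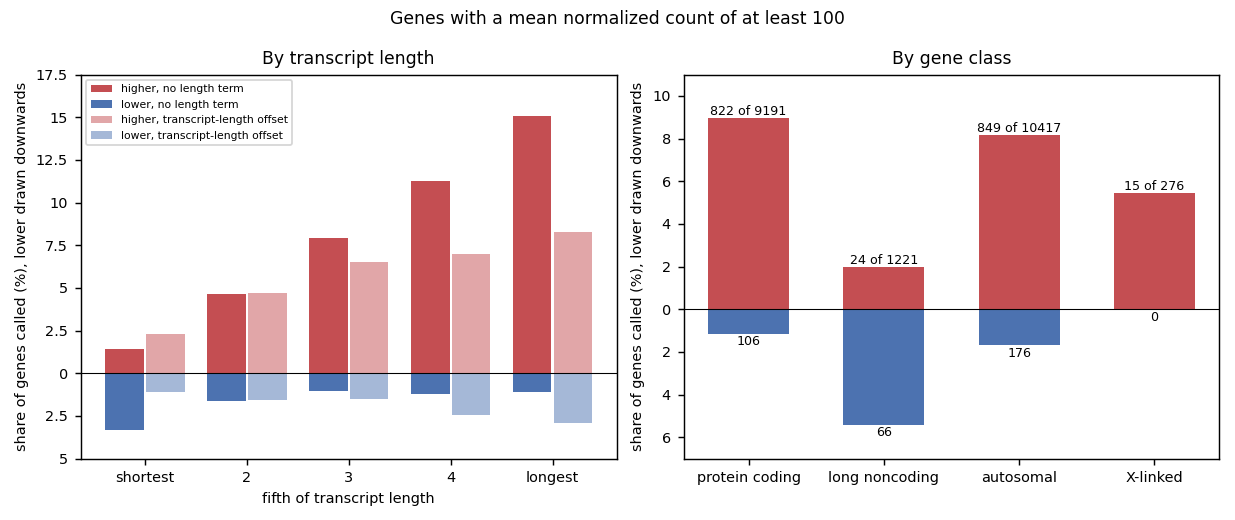
Share of genes with a mean of 100 or more normalized counts called higher (red, above 0) or lower (blue, below 0), in percent, in 5 equal classes of transcript length without and with a length offset (left) and by gene class (right, with numbers of genes). The share of rises climbs from 1.44% in the shortest to 15.1% in the longest class, and long noncoding genes fall more often than they rise.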

How the data were processed

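Poly(A) RNA-seq libraries of sorted round spermatids were made with a stranded kit. The strand setting of the counting is not given in the sources used here, so overlapping and antisense genes cannot be told apart. The authors trimmed reads (cutadapt 2.10 in the submitters' processing notes), aligned them with TopHat2 2.1.1 and counted reads per gene with HTSeq 2.01. The deposited raw counts were used. The deposited normalized signal columns, counts divided by the authors' DESeq2 1.36.0 size factors, are the normalized counts printed per library. Columns of the authors' comparisons (fold changes and p-values) were not used.

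The test was run in edgeR 4.0.16 under R 4.3.3 on genes whose counts over the 9 libraries summed to at least 10 (TMM scaling, robust quasi-likelihood fit by group over all 9 libraries, oxamate against vehicle, Benjamini-Hochberg threshold 0.05). Vehicle and oxamate libraries held 32434700 to 39888396 counts. The fit was tested on simulated data. Gene type, chromosome and the longest transcript, coding where there was one, came from GENCODE vM21 by gene identifier for 99.6% of genes, an older annotation than that of the counts. The length offset removed from each library a smooth trend of its log ratio to the mean over transcript length. Per-library list medians used log2(value + 1).

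The 75 gene lists and the members described were chosen with earlier results of these data known. Named genes were the 12 largest rises and falls with a mean of at least 100 and no overlap, up to 4 members of each list in each direction at that mean (the 2 most abundant where none was called), members of counts of 5 or fewer, the LDH genes and cell markers. Others were named after their values were seen: Fgf21, Slc7a3, P4hb, Syvn1, Hyou1, Btg1, Ppp1r15b, Ppp3r1, Ppp3cb, Mlec, Dpy19l1, Med1, Atp2b4, Hspa5, Atf4, Ddit3, Asns, Xbp1, Jun, Egr1, Axin2, Hes1, Slc16a7, Tnp1, Lef1, Dvl1, Lats1, Slc6a6, Ext1 and Kcnj6. Alternatives were other scalings and filters, DESeq2 1.42.0, only the 6 libraries, a threshold of 0.01, the length offset, and each library left out. Some items that the naming rule picks are not reported here.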

Additional observations from a re-analysis of the deposited data

How the results depend on the processing

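No paired analysis was made, because the library numbers run on from group to group and no label pairs libraries. Whether a pairing in number order, in which the medians of 3 lists differ by near-equal amounts, would change the calls was not tested. The count of called genes was 723 (562 higher, 161 lower) when only the vehicle and oxamate libraries were fitted, 602 (506 and 96) at an adjusted p under 0.01, and 1091 (871 and 220) with DESeq2. With 1 library left out it ranged from 669 to 2305, with 544 to 1585 higher and 125 to 720 lower, the lowest without vehicle library 2 and the highest without oxamate library 4. Other scalings, other filters and the length offset kept these counts within 1.5 times. Of 168 called genes that the text names, 101 kept their call under all 13 alternatives and none changed direction. The call was lost for 61 without vehicle library 2, for 52 with only 6 libraries and for 39 with the length offset. Genes that were not called and lay near 0 changed sign. With the length offset Ddit3 was at 0.003 and Oaz3 at 0.000. With total counts as the scaling Smcp was at −0.006. With 1 library left out the Gapdhs log2 fold change ranged from −0.029 to 0.06, Jun from −0.07 to 0.10, Ldhb from −0.81 to 0.15, Odf1 from −0.003 to 0.05, the Smcp log2 fold change from −0.042 to 0.07 and the Stag3 log2 fold change from −0.10 to 0.006. The cause of these shifts was not tested. With 3 libraries a group, a missing call does not show that a gene was unchanged.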

Other observations

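Ubiquitin ligases of the RING and TRIM classes, which choose proteins for degradation, were higher for 10 of 149 genes (6.71%) and lower for 1. Of those with a mean of at least 100, 8.51% were higher, near the 8.04% of all genes of that level. Rnf166 (log2 fold change 0.92) was the largest rise with a mean count of at least 100, and Trim42 (−0.32) the fall. The count of higher members was 4, 3, 8, 14, 3 and 7 with libraries 1 to 6 left out in turn and 5 with the length offset. Klhl11 (0.74), an adaptor of cullin ligases, led 8 rises among 163 adaptor genes (4.91%, near the 3.97% of all genes tested), with 1 fall, Klhl29 (−1.63), and 4 rises with the length offset. Leaving out libraries 1 to 6 in turn gave 5, 4, 6, 12, 5 and 6 higher adaptor genes and 1, 1, 0, 4, 1 and 0 lower. The 37 proteasome genes held no call, against 2 lower without oxamate library 4. In the TGF-beta and BMP pathway 3 of 50 genes were higher, the receptors Tgfbr3 (0.62) and Tgfbr1 (0.39) and the shared mediator Smad4 (0.39), and none was lower. This is 6% of the list against 3.97% of all genes tested, and 5 were higher without oxamate library 4. Among translation factors 4 of 88 were higher (4.55%, and 5.88% of those with a mean of at least 100, below the 8.04% of all genes of that level) and 2 lower, Eif4a2 (−0.44) and Eif1b (−0.29), and 11 were lower without oxamate library 4. Without vehicle library 1 or oxamate library 5, 2 were higher.

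The 113 genes of cyclins, kinases of the cell cycle and DNA replication held 4 rises (3.54%, below the 3.97% of all genes tested, and 5.06% at a mean of at least 100) and 1 fall, that of Cdk1 (−0.43), the kinase that drives entry into division, whose groups overlapped. The rises were Ccnt1 (0.42), Ccnl1 (0.36), Ccnd3 (0.36) and Ccnl2 (0.25). Without vehicle library 2 this list held 2 rises and no fall, and without oxamate library 4 it held 10 and 6. Of 59 histone genes Macroh2a2 was higher (0.49) and the testis variant H2al2a lower (−0.34), and without any one of vehicle libraries 1, 2 and 3 or oxamate libraries 5 and 6 no histone gene was called lower.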
